A study of Homo sapiens with 18 samples.

Results

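The clusters of replication-dependent histone genes were followed in a ChIP-seq measurement of the serine 5 phosphorylated (Ser5) form of RNA polymerase II (Pol II), the mark of polymerase that has begun transcription near gene starts. Of the 12123 regions with counts, 33 overlapped the hg19 intervals used for these clusters. Histone cluster 1 was covered on chromosome 6 by a first interval from 26000000 to 26300000 with 17 regions, a second from 27090000 to 27120000 with 2 and the third from 27770000 to 27870000 with 8. Cluster 2, on chromosome 1 from 149750000 to 149900000, held 6 regions, and cluster 3, on chromosome 1 from 228610000 to 228655000, held 0. The members were chosen by position, but the clusters were singled out from earlier results in which regions on chromosome 6 had higher counts at 2 h or 4 h than in DMSO. Their changes against DMSO are therefore given as a description, and nothing is supported with them.

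The cells were Rh30, an alveolar rhabdomyosarcoma line, in which the fusion transcription factor PAX3-FOXO1 carries an FKBP tag, through which dTAG47, a small-molecule degrader, brings it to the machinery of protein degradation. All 6 libraries come from these tagged cells. Controls received DMSO, the solvent, and the other 2 groups 500 nM dTAG47, for 2 h in one and 4 h in the other. Every group has 2 libraries, called A and B in the table. The labels do not name separate cultures or clones, so the spread between libraries may be technical. Total counts ranged from 962251 in 4 h library B to 1792013 in DMSO library A, and counts in the 33 regions ranged from 22 to 1124.

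Replication-dependent histone genes encode the core histones H2A, H2B, H3 and H4 and the linker histone H1, which package newly made DNA. They lie in clusters, are short and mostly without introns, are transcribed mainly in S phase, and give mRNAs that end in a stem-loop bound by SLBP instead of a poly(A) tail. Their transcription is gathered in nuclear bodies that hold the activator NPAT. Because the libraries come from cell populations, a change of signal in every cell and a change in the share of cells with signal cannot be told apart.

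The promoters of these genes show which sequence features the clusters share, and 1 example per family is printed to make them visible. RefSeq (GRCh38.p14) lists 68 protein-coding genes of these families on chromosomes 1 and 6, and 61 of them had a promoter sequence, giving 65 distinct windows from 250 bases before to 50 bases after a start. Capitals mark matches on either strand to the TATA box letters TATAAA, the CCAAT box letters CCAAT, the octamer ATTTGCAT and the H1 box AAACACA, none of which is part of another. The examples are the first gene with such a window in each printed family, in chromosome 6 order from H1-1 onward. For H2A it is the first that shares its window with an H2B gene on the other strand.
H1-1 (linker histone, chr6:26017738-26018037, minus strand): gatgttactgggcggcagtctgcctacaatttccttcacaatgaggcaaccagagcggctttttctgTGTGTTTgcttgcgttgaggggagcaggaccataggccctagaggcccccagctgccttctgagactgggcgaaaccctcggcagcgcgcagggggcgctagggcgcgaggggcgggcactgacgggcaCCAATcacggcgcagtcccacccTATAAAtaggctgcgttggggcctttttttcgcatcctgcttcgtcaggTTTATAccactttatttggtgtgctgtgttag
H2AC6 (core histone H2A, chr6:26123922-26124221, plus strand): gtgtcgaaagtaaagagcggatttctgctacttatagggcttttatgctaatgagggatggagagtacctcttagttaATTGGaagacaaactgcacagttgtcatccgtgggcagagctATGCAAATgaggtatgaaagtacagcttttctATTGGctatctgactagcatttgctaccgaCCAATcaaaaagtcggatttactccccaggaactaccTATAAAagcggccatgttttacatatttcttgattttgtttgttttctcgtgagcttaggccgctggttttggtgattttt
H3C1 (core histone H3, chr6:26020201-26020500, plus strand): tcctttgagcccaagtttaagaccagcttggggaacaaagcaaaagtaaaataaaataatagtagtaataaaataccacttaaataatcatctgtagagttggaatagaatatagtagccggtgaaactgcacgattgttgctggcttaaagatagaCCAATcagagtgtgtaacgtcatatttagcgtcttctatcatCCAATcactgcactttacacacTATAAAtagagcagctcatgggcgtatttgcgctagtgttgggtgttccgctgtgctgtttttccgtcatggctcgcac
H4C2 (core histone H4, chr6:26027234-26027533, minus strand): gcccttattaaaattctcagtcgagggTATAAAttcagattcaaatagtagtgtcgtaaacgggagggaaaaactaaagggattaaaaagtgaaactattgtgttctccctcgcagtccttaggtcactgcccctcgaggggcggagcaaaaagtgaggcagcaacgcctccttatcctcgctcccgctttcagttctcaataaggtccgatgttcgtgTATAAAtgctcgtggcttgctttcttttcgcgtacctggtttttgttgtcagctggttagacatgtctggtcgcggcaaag

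CCAAT was found in 57 of the 65 histone windows, or 87.7%, against 34.6% of 35116 promoter windows of all genes, and TATAAA in 44, or 67.7%, against 11.5%. The families differed in these letters. CCAAT stood in every H1, H2A, H2B and H3 window and in 3 of 11 H4 windows, as the H4C2 sequence shows by its absence. The octamer stood in 15 of 20 H2B and 10 of 15 H2A windows, against 1.77% of all promoters, and the H1 box in 6 of 6 H1 windows, against 5.64%. Of the 15 H2A windows, 10 overlapped the window of an H2B gene on the opposite strand, such as that of H2AC6 with H2BC4, so that 1 stretch of DNA carries the elements of both genes. A match in DNA shared by overlapping windows was counted in each, so the counts are of windows and not of separate elements. A match is a description of letters and not a binding site.

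The promoter coordinates are in GRCh38.p14 and the counted regions in hg19, and no position was converted between them. The regions were therefore tied to no single histone gene, and the name of the clusters was not checked region by region. In RefSeq order other genes stand among or beside the histone genes, so a member is not necessarily a histone gene. Among them are HFE and tRNA genes in cluster 1 and BOLA1, SV2A and SF3B4 beside the histone genes of cluster 2. Whether the interval used for cluster 2 holds the starts of BOLA1, SV2A or SF3B4 was not checked. Cluster 2 also holds near-identical copies, such as H2AC18 and H2AC19 or H3C14 and H3C15, and the treatment of reads that match both copies is not stated in any source used. For the same reason the planned descriptions of SLBP, NPAT and other genes of histone mRNA synthesis, and of markers of the cell line, were not made.

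Regions with Ser5 Pol II lay close together in cluster 1, and their levels varied widely between neighbours. The first interval held 17 regions in 300000 bases, with a median of 13190 bases between starts, and the third held 8 in 100000 bases, with a median of 6882. The stretches of chromosome 6 between the intervals, 789999 and 649999 bases long, held 2 regions and 1. All regions span 400 bases, so their levels can be compared per length. Levels are given in CPM, which are counts scaled to a common library total after the trimmed-mean (TMM) correction of edgeR.

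In DMSO the median of the 33 regions was 87.0 CPM, against 63.8 CPM for all regions. Of the 33, 20 lay above the median of all regions and 5 among the top 5% of them. The region with the highest level was region 4 of cluster 2 (chromosome 1, 149859024 to 149859424), with 403 and 577 CPM in DMSO libraries A and B, 644 and 736 CPM at 2 h and 708 and 732 CPM at 4 h. Its DMSO mean ranked 46 among the 12123 regions. All 4 treated libraries were above both DMSO libraries there, and the DMSO libraries differed more from each other than the treated ones did.

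The other 5 regions of cluster 2 were far lower, between 24.5 and 90.4 CPM in DMSO, and the interval had a median of 46.1 CPM. In the first interval of cluster 1 the highest level was at region 8 (26157376 to 26157776), with 281 and 420.2 CPM in DMSO, 433 and 455 CPM at 2 h and 429 and 476 CPM at 4 h. The lowest was at region 15 (26225293 to 26225693), with 19.4 and 27.4 CPM in DMSO, 15.4 and 22.0 CPM at 2 h and 23.9 and 29.8 CPM at 4 h. These 2 regions stand at the 99.2 and 3.96 percentiles of DMSO level, so 1 histone interval holds regions of high and of low rank in the table. The second interval and the third were more even, from 98.5 to 184 CPM and from 55.3 to 164 CPM in DMSO.

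**Figure D1:**
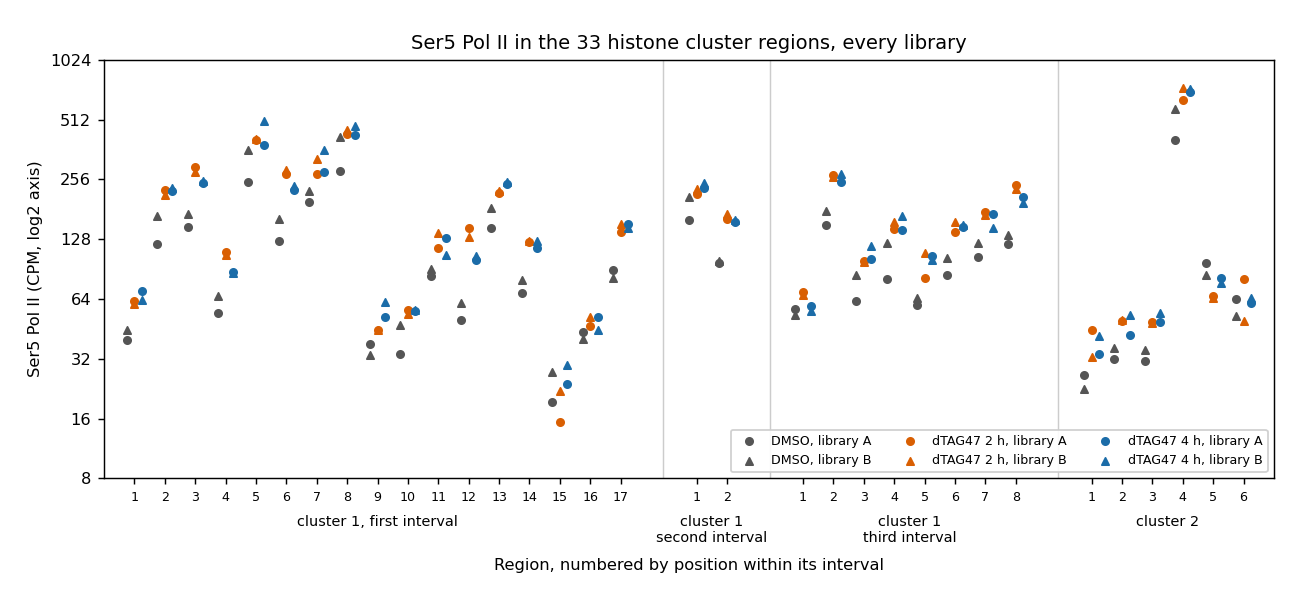
Ser5 Pol II in CPM (log2 axis) in each of the 33 regions, numbered by position within the interval, with 1 point per library (circles A, triangles B). In 30 of the 33 regions both 2 h libraries lie above both DMSO libraries, and in 29 both 4 h libraries do.

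The 2 DMSO libraries differed from each other over these regions in one direction. DMSO library B was above library A in 26 of the 33 regions, with a median difference of 0.22 on the log2 scale, and in 23 of the 27 regions of cluster 1 (0.25). Over all regions B was above A in 50.3%, with a median difference of 0.00, and in the top 10% by DMSO level in 49.5%. The libraries of a treated group differed less, with median differences over the 33 regions of 0.01 at 2 h and 0.06 at 4 h. Library B was above A in 18 of the 33 at 2 h, against 50.8% of all regions. At 4 h it was above A in 23, against 49.8% of all regions and 40.6% of the top 10%. The counts of called members against DMSO are therefore also given without DMSO library A.

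At 2 h of dTAG47, 15 of the 33 regions were called higher than in DMSO (adjusted p under 0.05 in edgeR's quasi-likelihood test, by Benjamini-Hochberg over all regions), against 2.22% of the table, and 0 were called lower, against 0.396%. Both 2 h libraries lay above both DMSO libraries in 30 regions, against 21.9% of all regions, and below them in 1, against 21.8%. The median log2 fold change of the 33 was 0.55, against -0.01 for all regions. The called regions were 8 of 17 in the first interval of cluster 1, 1 of 2 in the second, 6 of 8 in the third and 0 of 6 in cluster 2. Without DMSO library A 8 of the 33 were called (6, 1, 1 and 0 in these intervals) and the median was 0.45. Without 2 h library B 9 were called, and with DESeq2 9.

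The largest change among the members was at region 12 of the first interval (26199004 to 26199404). It had 50.2 and 60.9 CPM in DMSO and 145 and 131 CPM at 2 h, so that it rose 2.50-fold (log2 fold change 1.32, SE 0.15). Each 2 h library was more than 2 times as high as either DMSO library. Region 11 (26197152 to 26197552), which starts 1852 bases before it, had 83.7 and 90.3 CPM in DMSO and 115 and 137 CPM at 2 h, a rise of 0.53 (SE 0.15) that was not called without DMSO library A (0.48), without 2 h library B (0.41) or with DESeq2. These close neighbours thus had log2 fold changes that lay apart by more than 3 times the standard error of either.

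Region 4 of the first interval (26033438 to 26033838) rose by 0.86 (SE 0.15) at 2 h, from 54.5 and 66.4 CPM to 110.3 and 107 CPM. The 2 h values were close to each other and well above both controls. The other called regions of this interval (2, 3, 6, 14 and 17) rose by 0.62 to 0.97, and all those not called had log2 fold changes from -0.31 to 0.55. Region 15, the lowest in level, had -0.31 (SE 0.31), and its 2 h and DMSO libraries overlapped. At 4 h it had 0.19 (SE 0.30), the smallest value of this interval, and its 4 h and DMSO libraries overlapped. Region 8, the highest, had 0.35 (SE 0.16), and its 2 h libraries were above DMSO library B by less than the DMSO libraries were apart. Without DMSO library A it had 0.08, and without DMSO library B it was called (0.67).

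In the second interval, region 2 (27114650 to 27115050) rose by 0.76 (SE 0.14), from 97.2 and 99.9 CPM in DMSO to 162 and 172 CPM at 2 h. Its DMSO libraries were nearly equal, and leaving out either kept the call. Region 1 (27101482 to 27101882) had 159 and 209 CPM in DMSO and 216 and 229 CPM at 2 h, with a log2 fold change of 0.28 (SE 0.15) that was not called. That value was 0.09 without DMSO library A and 0.49 without DMSO library B.

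In the third interval 6 of 8 regions were called at 2 h, but 1 of 8 without DMSO library A. Region 8 (27860660 to 27861060), the last of the cluster, rose by 0.88 (SE 0.14), from 121 and 135 CPM to 240.2 and 229 CPM, and was the 1 that kept its call. Region 2 (27792209 to 27792609), the highest of this interval, rose by 0.70 (SE 0.15), from 151 and 178 CPM to 268 and 264 CPM, and was not called without DMSO library A (0.58) or without 2 h library A (0.69). Region 1 (27777756 to 27778156), the first of the interval, had 57.2 and 53.4 CPM in DMSO and 69.1 and 66.9 CPM at 2 h. Its log2 fold change of 0.29 (SE 0.17) was the smallest of the 8, and it was not called. Regions 4 and 6 rose by 0.59 and 0.67.

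Cluster 2 had no called region in the edgeR fit of the 3 groups, although 4 of its 6 regions had both 2 h libraries above both DMSO libraries. Regions 1 and 4 were called higher at 2 h when a replicate block by column letter, given at the end, was added. The median log2 fold change was 0.52, beside 0.59 in cluster 1, and whether the clusters differ was not tested. Both medians include every region of the intervals, whether at a histone gene or not. Region 1 (149784655 to 149785055) had 26.5 and 22.6 CPM in DMSO and 44.7 and 32.7 CPM at 2 h (log2 fold change 0.65, SE 0.25). Its counts of 33 to 64 give a standard error well above the median of 0.15 for the 33 regions. Region 4, the highest of all members, had 0.50 (SE 0.17). Without DMSO library A it had 0.26, without DMSO library B it was called (0.78), and limma-voom called it too (0.51, adjusted p 0.0321).

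One member in the interval of cluster 2 went the other way, and it need not be at a histone gene. Region 5 (149871294 to 149871694) had 96.7 and 84.2 CPM in DMSO, 66.3 and 64.6 CPM at 2 h and 81.9 and 76.7 CPM at 4 h. It was the 1 member with every treated library below both DMSO libraries. Its log2 fold changes of -0.47 (SE 0.15) at 2 h and -0.19 (SE 0.15) at 4 h were not called. The block by column letter called it lower at 2 h.

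**Figure D2:**
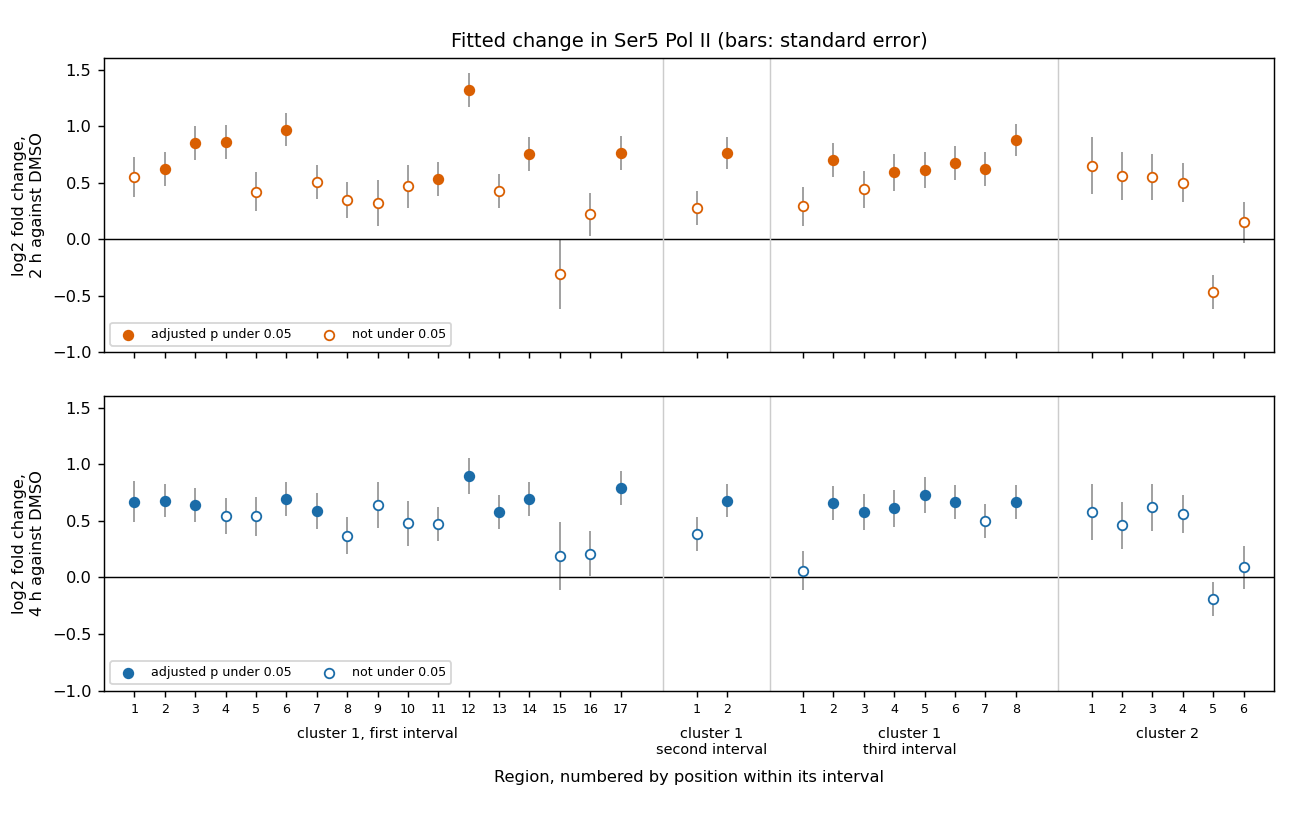
Fitted log2 fold change with its standard error (bars) in each of the 33 regions, at 2 h (top) and 4 h (bottom) against DMSO, with filled points for adjusted p under 0.05. At 2 h 15 points are filled and at 4 h 16, and region 5 of cluster 2 lies below 0 in both panels.

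After 4 h, 16 of the 33 regions were called higher than in DMSO, against 1.52% of all regions, and 0 lower, against 0.487%. Both 4 h libraries were above both DMSO libraries in 29 members, against 20.2% of all regions, and below in 1, against 20.6%. The members had a median log2 fold change of 0.58, against -0.01 for all regions, and the called ones were 9 in the first interval of cluster 1, 1 in the second and 6 in the third. Without DMSO library A 3 of the 33 were called and the median was 0.42. Without 4 h library B 9 were called, and with DESeq2 6. The same DMSO libraries enter both comparisons, so neither is independent of the other.

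Region 12 of the first interval again had the largest value, with 101 and 105 CPM at 4 h, a rise of 0.90 (SE 0.16) from DMSO. It was called at 4 h also without DMSO library A, as were region 17 of the first interval and region 2 of the second, picked out here for that reason. Region 17 (26285356 to 26285756) had 89.6 and 82.1 CPM in DMSO, 139.6 and 152 CPM at 2 h and 152 and 145 CPM at 4 h. Region 2 of the second interval had 156 and 159.8 CPM at 4 h, a rise of 0.68 (SE 0.15). In region 17 DMSO library B was below library A, in region 2 they were nearly equal, and all treated libraries were above both. With DESeq2, region 2 was not called at 4 h (0.69, adjusted p 0.0661). Regions 2, 3, 6 and 14 of the first interval rose by 0.64 to 0.69 at 4 h. Regions 5, 9, 10 and 16, called at neither time, had log2 fold changes from 0.22 to 0.47 at 2 h and from 0.21 to 0.64 at 4 h, with both libraries above both DMSO libraries each time.

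Because the DMSO libraries are shared, regions called at 1 time only are given with both values side by side. Those called only at 2 h were 3, regions 4 and 11 of the first interval and region 7 of the third (27840977 to 27841377). Regions 4 and 11 had 0.86 and 0.53 at 2 h, then 0.54 and 0.47 at 4 h. Region 7 had 104 and 123 CPM in DMSO, 176 and 170.3 CPM at 2 h and 171 and 146 CPM at 4 h, with log2 fold changes of 0.62 and 0.50. Its libraries did not overlap with DMSO at either time, and its rise at 2 h was not called without DMSO library A (0.49), without either 2 h library or with DESeq2.

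Called only at 4 h were 4 members, regions 1, 7 and 13 of the first interval and region 3 of the third. Region 1 (26021344 to 26021744) had 40.0 and 44.5 CPM in DMSO, 62.8 and 60.1 CPM at 2 h and 69.9 and 62.9 CPM at 4 h. Region 13 (26205260 to 26205660) had 146 and 183 CPM in DMSO, 219 and 223 CPM at 2 h and 243 and 248 CPM at 4 h. Region 1 had log2 fold changes of 0.55 and 0.67 at these times, and region 13 of 0.43 and 0.58. In all 4 members the 2 h libraries already lay above both DMSO libraries. Region 7 (26123235 to 26123635) had 197 and 225 CPM in DMSO, 274 and 326 CPM at 2 h and 278 and 361 CPM at 4 h, with log2 fold changes of 0.51 and 0.59. Region 3 of the third interval (27798665 to 27799065) had 62.6 and 84.9 CPM in DMSO, 99.8 and 98.1 CPM at 2 h and 102 and 118 CPM at 4 h, with 0.44 and 0.58. All 4 lost the call at 4 h when DMSO library A was left out, and also when 4 h library B was.

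Region 5 of the third interval (27834342 to 27834742) had the largest 4 h value of its interval, with 59.9 and 65.0 CPM in DMSO and 105 and 101 CPM at 4 h, a rise of 0.73 (SE 0.16) that was not called without DMSO library A (0.67). At 2 h its libraries lay further apart, at 81.7 and 109 CPM, and its rise of 0.61 was not called without 2 h library B (0.40) or without DMSO library A (0.55). With DESeq2, region 5 of the third interval was called at neither time (adjusted p 0.261 at 2 h and 0.174 at 4 h). Region 1 of that interval had 59.2 and 55.4 CPM at 4 h and a log2 fold change of 0.06, and its 4 h and DMSO libraries overlapped. Regions 4 and 6 rose by 0.61 and 0.67. The region of highest mean level had 0.37 (SE 0.16) at 4 h in the first interval and 0.38 (SE 0.15) in the second. In the third interval it had 0.66 (SE 0.15) and in cluster 2 0.56 (SE 0.17), and only that of the third was called. In cluster 2 the largest value at 4 h was that of region 3 (149821524 to 149821924), with 31.3 and 35.6 CPM in DMSO, 49.1 and 54.3 CPM at 4 h and a log2 fold change of 0.62 (SE 0.21) that was not called.

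**Figure D3:**
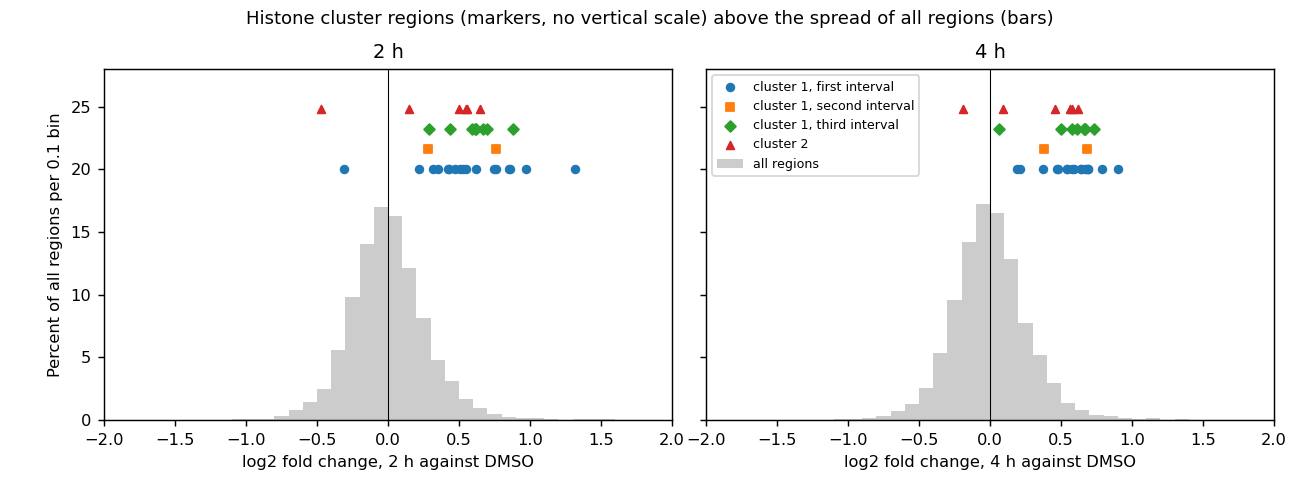
Log2 fold changes of the 33 regions (markers by interval, placed at heights with no scale) above the distribution over all regions (bars, percent per bin of 0.1), at 2 h (left) and 4 h (right). The members have medians of 0.55 and 0.58, and the whole table has a median of -0.01 at both times.

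The direct comparison of 4 h with 2 h gave 0 called members and 0 called regions in the whole table (0%) in edgeR. At an unadjusted p under 0.05 in the same edgeR test were 2 of the 33 members, against 3.27% of all regions. DESeq2 called 0 members with 0 at an unadjusted p under 0.05, and limma-voom 0 with 2. The 2 members were regions 12 and 4 of the first interval, both lower at 4 h, with log2 differences of -0.43 and -0.32. In each, both 4 h libraries were below both 2 h libraries and above both DMSO libraries. Both 4 h libraries were below both 2 h libraries in 7 members and in 1988 of the 12123 regions. Over the 33 regions the median difference was 0.01, 18 were positive and 15 negative, and the values ran from -0.43 to 0.50. Missing the threshold is no evidence of equal levels at 2 h and 4 h.

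Summed, the 33 regions held 0.353% of all counts in DMSO library A and 0.433% in library B. The shares were 0.547% and 0.559% at 2 h, then 0.542% and 0.563% at 4 h. The 4 treated libraries were within a narrow range of each other and above both controls, and the largest gap within a group was that between the DMSO libraries. Relative to the mean of the DMSO libraries, the summed CPM of the first interval was 1.47 and 1.52 at 2 h and 1.41 and 1.55 at 4 h, and that of the third was 1.54 and 1.58, then 1.49 and 1.52. Cluster 2, of which region 4 makes up most, stood at 1.28 and 1.34 at 2 h and 1.34 and 1.40 at 4 h. DMSO library B alone stood between 1.09 and 1.12 in these 4 intervals.

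**Figure D4:**
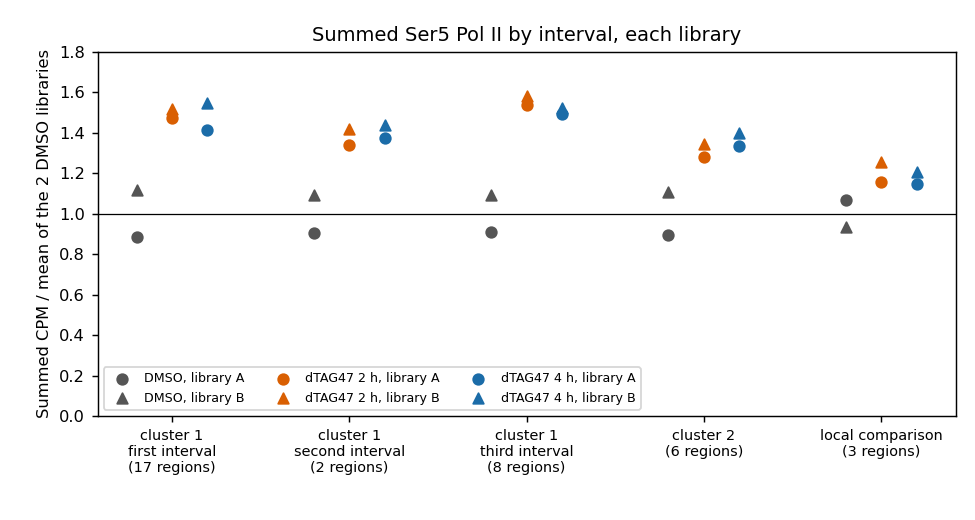
Summed CPM of each interval, and of the 3 regions between the intervals of cluster 1, divided by the mean of the 2 DMSO libraries, with 1 point per library. In the 4 histone intervals every treated library lies above 1.2 and DMSO library B above DMSO library A, while among the 3 regions between them DMSO library A is the higher of the 2.

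The regions between the intervals of cluster 1 share the chromosome arm but are only 3, all of low level. They had 28.8, 32.2 and 41.7 CPM in DMSO, at the 7.77, 11.0 and 22.1 percentiles of all regions. Their log2 fold changes were 0.51, 0.10 and 0.19 at 2 h and 0.48, 0.14 and 0.06 at 4 h, and 0 of the 3 were called. Their standard errors of 0.20 to 0.24 were above the 0.15 and 0.16 that are the medians of the members at 2 h and 4 h. The summed CPM of the 3 stood at 1.16 and 1.26 times the DMSO mean at 2 h and 1.15 and 1.20 at 4 h.

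At the outer edges, the nearest region below the first interval (25992218 to 25992618, 7382 bases away) had 63.7 ± 3.03 CPM in DMSO (SD, n = 2). Its log2 fold changes were 0.33 (SE 0.16) at 2 h and -0.02 (SE 0.17) at 4 h, neither called. Both of its 2 h libraries were above both DMSO libraries. The nearest above the third interval, 202456 bases away, had 0.12 and 0.23. Just inside these edges, region 1 of the first interval had 0.55 (SE 0.18, not called) and 0.67 (SE 0.18, called). Region 8 of the third had 0.88 (SE 0.14) and 0.67 (SE 0.15), both called. At 4 h it had 0.59 without DMSO library A and 0.61 without 4 h library A. Whether regions inside and outside an edge differ was not tested. On chromosome 1, region 6 of cluster 2 crosses the upper limit of its interval and had 0.15 and 0.09, and the nearest region beyond it had 0.17 and -0.18. The nearest region below cluster 2, 525823 bases away at 149223777 to 149224177, was called higher at both times (1.05 and 0.97). Cluster 3, with no region of its own, lies between regions 15585 bases below and 20042 bases above it, which had -0.15 and 0.12 at 2 h and 0.03 and -0.15 at 4 h.

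Across the 33 regions, which share their libraries, the log2 mean level and the log2 fold change had a Pearson's r of 0.30 at 2 h and 0.29 at 4 h, given as a description. The mean level is here that of all 6 libraries, so the treated values enter both sides and it is not the DMSO level. Called regions had DMSO means from 55.6 to 164 CPM at 2 h and from 42.2 to 211 CPM at 4 h. Those not called reached both lower and higher, from 23.4 to 490.1 CPM at both times. Members that were not called had medians of 0.43 (2 h) and 0.47 (4 h) on the log2 scale, with a median SE of 0.17. The called ones had 0.75 and 0.67, with 0.15.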

How the data were processed

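The authors deposited raw counts of Ser5 Pol II ChIP-seq reads in 12123 regions and 6 libraries. The builds hg19 and dm3 and the tools Bowtie2, DiffBind, MACS2, DESeq2 and Trimmomatic 0.32 come from the submitters' processing notes. No source used states how regions were called, merged and counted, or from which number positions start. The table has no fly rows, so a change of all regions by 1 factor would not be seen. Of the 18 samples, the 12 made with other antibodies were not analysed here. Columns were tied to groups, and their letters not to replicate numbers.

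Regions overlapping the intervals by any base were members. Counts of all regions were fitted in 1 edgeR 4.0.16 quasi-likelihood model (R 4.3.3) of the 3 groups with TMM factors, with Benjamini-Hochberg adjustment over the 12123 regions. filterByExpr removed 0. Standard errors are the size of the log2 fold change over the square root of F. The test was tried on simulated counts. Libraries of a group differed by more than sampling noise (chi-square per degree of freedom 1.5 to 2.33). Alternatives used DESeq2 1.42.0, limma 3.58.1, other scalings and filters, and left out each library. Promoters were matched by symbol in Python 3.11.15.

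The members and lists were chosen with earlier results of these data known. For full values the text names, in each interval, the region with the highest mean CPM, those with the largest and smallest log2 fold change at 2 h and 4 h, and those called at 1 time only. For some of these, the CPM of each library are given at 1 time only. The other regions are given by ranges or by log2 fold changes alone. Region 17 of the first interval and region 6 of cluster 2 were picked after their values were seen.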

Additional observations from a re-analysis of the deposited data

How the results depend on the processing

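No named region changed direction while called in any alternative, 534 of its alternative values kept their standing, 48 lost and 33 gained a call, and 20 moved by over 1 standard error without a call. DESeq2 called 9 members at 2 h and 6 at 4 h and gave no adjusted p for 11 and 10. Leaving out 1 library moved the called members between 8 and 21 at 2 h and between 3 and 22 at 4 h, lowest without DMSO library A and highest without DMSO library B, and the median log2 fold change between 0.45 and 0.68, between 0.42 and 0.73, and for 4 h against 2 h between -0.03 and 0.06. Total count scaling gave medians of 0.49 at 2 h and 0.53 at 4 h, with 12 and 11 members called. Cyclic loess with limma-trend gave 0.53 and 0.54, with 10 and 11 called. A covariate for each library's share in the 3 highest regions gave 0.47 and 0.51, with 15 and 12 called. For 4 h against 2 h the covariate gave -0.04. The main fit called 15 and 16. Loess at 2 h gave 0.27 against 0.50 for region 4 of cluster 2, and 0.16 against 0.35 for region 8 of the first interval. For region 1 of cluster 2 it gave 0.72 against 0.65. The loess and the covariate were chosen after seeing the data. The cause of these shifts was not tested. The comparison of 4 h with 2 h had 0 called members under every alternative. Over the 16 settings other than DESeq2, 8 members were called in all at 2 h and 3 at 4 h. DESeq2 kept 9 of the 15 calls at 2 h and 6 of the 16 at 4 h. Among these called members it gave no adjusted p for 0 at 2 h and 1 at 4 h. Region 2 of the second interval, among the 3 at 4 h, was not called with DESeq2 (adjusted p 0.0661).

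A replicate block by column letter called 23 members higher and 1 lower at 2 h and 25 higher at 4 h. Among them were regions 1 and 4 of cluster 2 as higher and region 5 as lower at 2 h (adjusted p 0.0418, 1.42e-05 and 0.0254), and regions 3 and 4 as higher at 4 h (0.0316 and 5.04e-07). The letters are not tied to the replicate numbers of the labels, and each group has 2 libraries. Whether libraries with the same letter share more than the letter is not stated. As a description, the A to B differences of the groups were positively correlated over all regions. The correlations were 0.219 (DMSO and 2 h), 0.279 (DMSO and 4 h) and 0.158 (2 h and 4 h). Why they were positive was not tested, and the main fit has no block. The filter on low counts removed nothing, so leaving it out tested nothing. Depth limits the low members: the standard errors reached 0.31.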
